A study of Mus musculus and Homo sapiens with 40 samples.

Results

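H3K27ac is a mark of active promoters and enhancers, and 3207 regions were defined here as having lost this mark after LPS in cells with the p30 isoform of CEBPA and in no other setting measured. CEBPA is a basic leucine zipper transcription factor that drives myeloid differentiation. Its full-length form is p42. The shorter p30 form keeps the DNA-binding and dimerization part of the protein and lacks an N-terminal part that activates transcription, and p30 is the form retained in leukaemias with N-terminal CEBPA mutations. LPS is a bacterial cell wall component sensed by Toll-like receptor 4, whose signalling reaches NF-kB, AP-1 and other factors that bind enhancers. H3K4me1 marks enhancers, both active and poised.

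The cells were HPC-7, a mouse haematopoietic progenitor cell line with little CEBPA of its own, stably transduced by retrovirus with CEBPA p42 or p30 fused to ERT2, which places nuclear entry under the control of 4-hydroxytamoxifen. H3K27ac was measured by ChIP-seq in both lines, untreated and after 2 h of LPS at 100 ng/mL, with 3 replicates per group pooled into 1 peak list by the authors. H3K4me1 (2 replicates pooled per line) and CEBPA occupancy (1 library per line and antibody, using anti-CEBPA or anti-ER, of which the second recognizes the fusion) were measured in untreated cells only. The labels name no other agent. The methods of the study say that ERT2 cells received 4-hydroxytamoxifen ahead of experiments but do not give it for each ChIP-seq library, and untreated here means without LPS. The labels do not say whether the lines were clonal or pooled populations. All groups carried an ERT2 fusion, and no list of cells without one was used.

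The regions were chosen by presence and absence alone. The 4 pooled H3K27ac lists were merged into 183190 union regions on chromosomes 1 to 19, X and Y, peaks being joined where they shared at least 1 bp. A region was selected when a peak of the untreated p42, the p42 LPS and the untreated p30 list overlapped it and no peak of the p30 LPS list did. Of the 59858 regions present in the first 3 of these lists, 5.36% were absent from the p30 LPS list. The mirror selection, absent only from the p42 LPS list, took 12159 of 68810 regions, or 17.7%. A further 7229 regions were held by both untreated lists and by neither LPS list, and 56651 were held by all 4 lists. The p30 LPS list was the longest of the 4, with 142419 peaks, and the p42 LPS list was the shortest, with 107141, so that absence was harder to reach in p30 LPS than in p42 LPS. With 107141 peaks taken from each list, the counts lay closer together. Then 4000 regions were absent only from the p30 LPS list, 5859 only from the p42 LPS list, and 50223 were held by all 4. Among 10 marker genes of progenitor cells, among them *Kit*, *Tal1* and *Runx1*, all had an H3K27ac peak at their promoter in each of the 4 lists, while the liver, neuron and muscle markers had none. Of 3 T cell markers, only *Cd4* had 1, in the p30 LPS list.

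**Figure D1:**
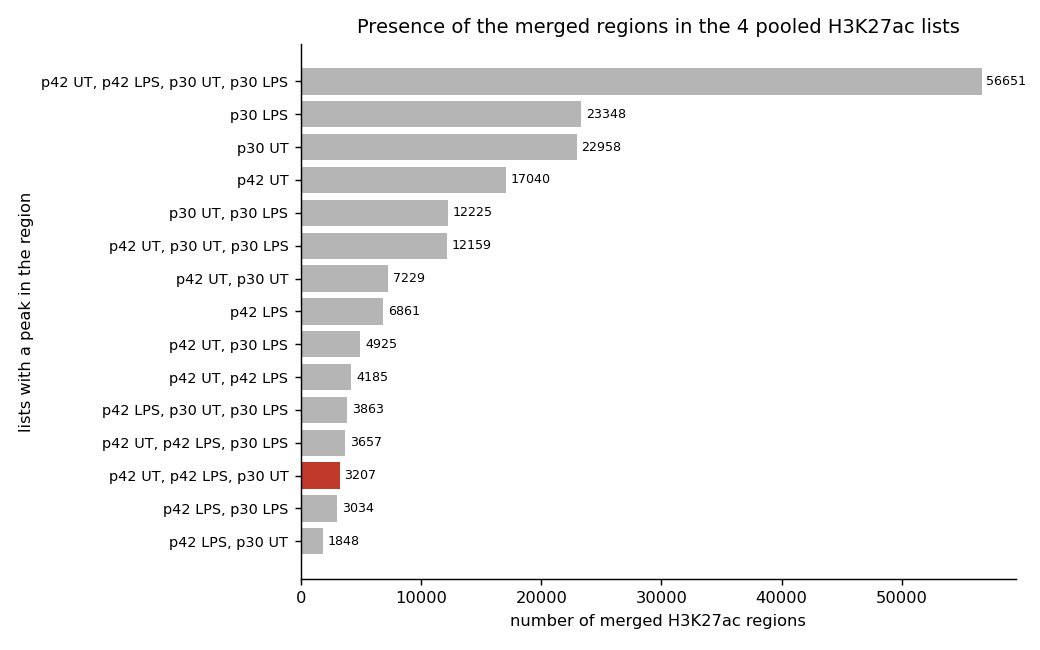
Number of merged H3K27ac regions (x axis) by the set of lists with a peak in the region (y axis; UT, untreated). The red bar holds the 3207 regions absent only from the p30 LPS list, beside 56651 in all 4 lists and 12159 absent only from the p42 LPS list.

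Among the lost regions, 110 were distal, outside promoters, with a peak in all 4 CEBPA lists. Promoters included, such a peak was no more common in lost regions than in all union regions (3.65% against 3.66%). The distal ones serve as examples of occupied sites. The 110 regions were ordered by the smaller of their fold enrichments in the p42 and the p30 anti-CEBPA list. Windows are 200 bp around the p30 anti-CEBPA summit on the plus strand of GRCm39. The 4 best that lie in no exon and hold a CEBP or AP-1 sequence in the window are shown. A sequence in the window was thus a condition for showing it. These windows show the DNA that CEBPA occupied in both lines. Capitals mark a CEBP sequence, defined as TTGCGCAA, TTGCACAA or TTACGCAA on either strand (TTGTGCAA and TTGCGTAA being the other strand of the last 2).

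Near *Atad2b*, chr12:4980898-4981097: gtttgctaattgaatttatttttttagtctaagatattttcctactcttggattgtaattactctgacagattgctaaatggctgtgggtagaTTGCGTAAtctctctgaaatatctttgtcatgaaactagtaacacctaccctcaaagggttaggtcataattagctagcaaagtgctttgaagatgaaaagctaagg
Near *Tgfbr1*, chr4:47349060-47349259: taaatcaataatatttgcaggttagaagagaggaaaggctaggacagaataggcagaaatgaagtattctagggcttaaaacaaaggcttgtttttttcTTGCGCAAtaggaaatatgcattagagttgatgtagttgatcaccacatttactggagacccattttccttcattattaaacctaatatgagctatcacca
Near *Sypl1*, chr12:32994104-32994303: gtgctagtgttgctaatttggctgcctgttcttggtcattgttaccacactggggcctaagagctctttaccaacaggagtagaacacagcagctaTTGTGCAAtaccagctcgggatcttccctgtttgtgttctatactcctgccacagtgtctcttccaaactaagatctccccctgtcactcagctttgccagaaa
Near *Slc8a1*, chr17:82673495-82673694: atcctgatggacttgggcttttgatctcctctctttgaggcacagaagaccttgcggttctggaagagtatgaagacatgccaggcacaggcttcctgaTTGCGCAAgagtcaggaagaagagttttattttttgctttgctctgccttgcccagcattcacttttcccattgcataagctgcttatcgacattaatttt

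In these 4 windows the word began at base 94, 100, 97 and 100, next to the summit. The summit lay inside the H3K27ac region at *Sypl1* and *Slc8a1*. At *Atad2b* and *Tgfbr1* it lay just outside, and only the edge of the CEBPA peak overlapped the region. Of the 110 windows of this kind, 35 held the CEBP sequence (31.8%, Wilson 95% interval 23.9 to 41.0, which here and below covers counting error only). The interval includes the 28.1% of all p30 anti-CEBPA sites with this sequence. It lies above the 17.5% of p30 anti-CEBPA sites inside regions held by all 4 H3K27ac lists. Those sites include promoters and did not need a peak in all 4 CEBPA lists. Sites in kept regions that meet both conditions were not counted, so the difference cannot be ascribed to the loss.

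Before LPS the regions were weak in both lines. Ranks were expressed as a share of each list, with 0% for the strongest peak. The median rank share was 59.9% in untreated p42, 71.0% in p42 LPS and 65.5% in untreated p30, against 24.4%, 31.0% and 22.5% for regions held by all 4 lists. The median fold enrichment over background was 3.08 in untreated p42, 3.07 in p42 LPS and 2.89 in untreated p30. The highest was 16.3 in untreated p42 but 6.82 in untreated p30. Only 7 of the 3207 regions ranked in the best 20% of the untreated p30 list, compared with 93 for untreated p42. The regions were also short, with a median of 580 bp (quartiles 427 and 801), against 1464 bp for regions of all 4 lists. These values come from the lists that chose the regions and describe the selection only.

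The share of eligible regions that were lost fell with rank in the untreated p30 list. It was 0.0273% in the best 20% of that list, 1.97% from 20 to 40%, 10.9% from 40 to 60%, and 28.0% in the weakest 20%. At the edge of the selection, 95 of the regions had a p30 LPS peak within 100 bp and the closest touched one. Just outside it, 47 of the regions held by all 4 lists had under 10% of their length covered by p30 LPS peaks, and the weakest p30 LPS peak that kept a region had a fold enrichment of 1.75 and a −log10 q of 1.32.

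**Figure D2:**
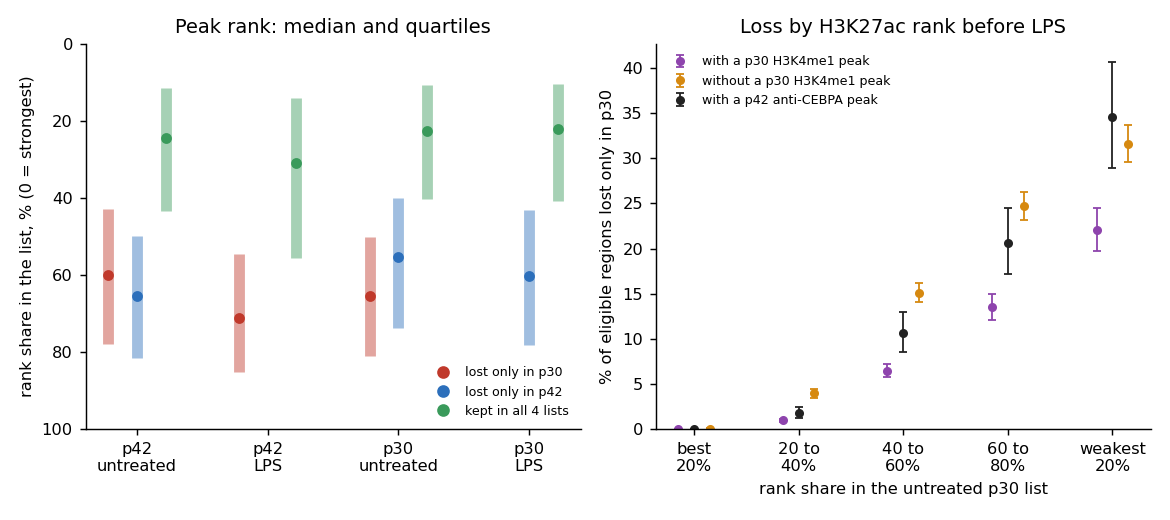
Left, rank share in each H3K27ac list (0% is the strongest peak; points, medians; bars, quartiles) for regions lost only in p30, lost only in p42 and kept in all 4 lists. Right, percent of eligible regions that were lost only in p30 by rank share in the untreated p30 list, for regions with or without a p30 H3K4me1 peak and for those with a p42 anti-CEBPA peak, with Wilson 95% intervals. Loss rose towards weak ranks and was lower where p30 H3K4me1 was present, 22.0% against 31.6% in the weakest 20%.

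CEBPA occupied a minority of the lost regions, in both lines. An anti-CEBPA peak of p42 cells overlapped 291 of 3207 regions (9.07%, interval 8.13 to 10.1), against 6.74% of all union regions. For p30 anti-CEBPA the count was 161 (5.02%, 4.32 to 5.83), against 5.41%. The anti-ER lists gave 273 in p42 (8.51%, 7.60 to 9.53), against 6.54%, and 268 in p30 (8.36%, 7.45 to 9.37), against 8.86%. In all, 405 regions (12.6%, 11.5 to 13.8) had a peak in at least 1 of these lists, against 10.8% of all union regions. A peak in all 4 was found in 117 (3.65%, 3.05 to 4.35), near the 3.66% of all union regions. Of regions held by all 4 H3K27ac lists, 9.66% had a peak in all 4 CEBPA lists. Thus both p42 lists lay above the share over all union regions, and both p30 lists had intervals that included it. With the CEBPA summit required inside the region, both p42 lists still lay above it (6.27% against 5.23% and 6.74% against 5.53%), and both p30 lists fell below it, with 3.12% (2.57 to 3.78) against 4.37% for anti-CEBPA and 5.86% (5.10 to 6.73) against 7.39% for anti-ER.

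Regions lost only in p42 were occupied far less often. The 4 shares there were 1.64%, 1.38%, 1.03% and 2.46% of 12159 regions for p42 anti-CEBPA, p30 anti-CEBPA, p42 anti-ER and p30 anti-ER, and none of their intervals overlapped those of the regions lost only in p30. Regions lost in both lines resembled them, with 1.63%, 1.20%, 1.12% and 1.59%. Regions held by all 4 lists, which are longer and stronger, had 15.5%, 13.6%, 16.4% and 22.5%.

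**Figure D3:**
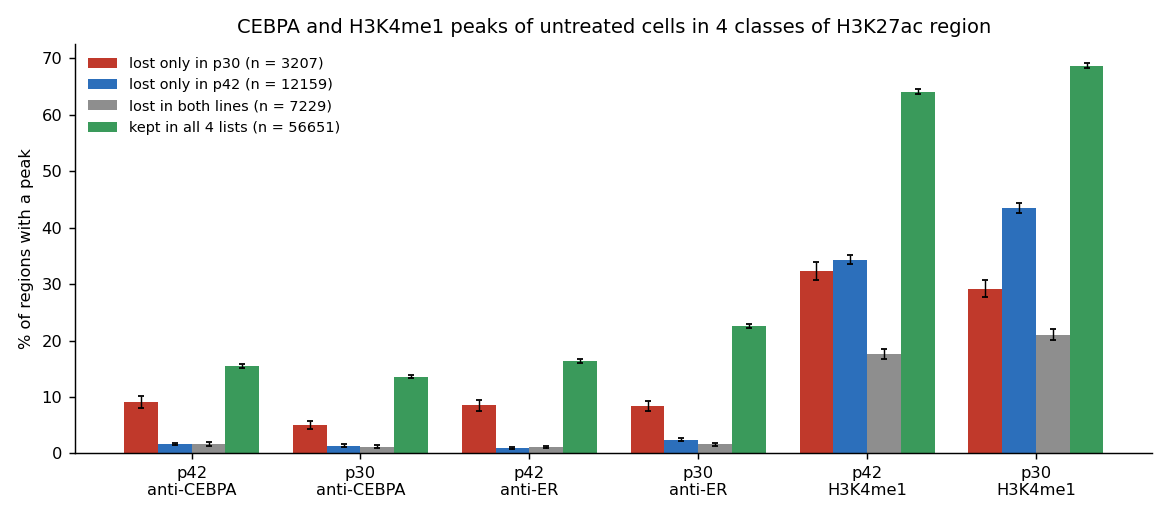
Percent of regions with a CEBPA or H3K4me1 peak of untreated cells (y axis) in 4 classes of H3K27ac region (bars; lines, Wilson 95% intervals). For each CEBPA list the regions lost only in p30 lay between the regions kept in all 4 lists and both other lost classes.

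Because length and strength differ between classes, occupancy was also compared at matched rank in the untreated p30 list. From 60 to 80%, p42 anti-CEBPA peaks overlapped 95 of 1036 regions lost only in p30 (9.17%, 7.56 to 11.1) and 45 of 3106 lost only in p42 (1.45%, 1.08 to 1.93). In each of the 4 classes from 20% downward the interval for the regions lost only in p30 lay above that for the regions lost only in p42, for both antibodies and both lines. Against the regions that p30 cells kept, the intervals with and without a CEBPA peak overlapped or touched in every rank class and list. From 60 to 80%, 20.6% of eligible regions with a p42 anti-CEBPA peak were lost (17.2 to 24.5) and 20.0% of those without one (18.8 to 21.1). With p30 anti-ER the shares in that class were 16.6% with a peak (13.4 to 20.2) and 20.4% without (19.2 to 21.5). From 40 to 60%, 7.77% with a p30 anti-CEBPA peak were lost (5.73 to 10.4) and 11.1% without (10.4 to 11.8), and from 20 to 40% the p30 anti-ER shares were 1.32% and 2.07%. In the weakest 20% the share lost was higher with a peak for each list, with 34.5% and 27.4% for p42 anti-CEBPA, 32.7% and 27.8% for p30 anti-CEBPA, 34.0% and 27.5% for p42 anti-ER, and 31.4% and 27.7% for p30 anti-ER, with and without a peak. A CEBPA summit within 500 bp of the H3K27ac summit, a measure in which region length did not enter, was found in 9.92%, 5.46%, 9.92% and 9.26% of the lost regions for p42 anti-CEBPA, p30 anti-CEBPA, p42 anti-ER and p30 anti-ER. In regions of all 4 lists, not matched for rank, these shares were 10.9%, 9.76%, 12.2% and 17.3%. That gap was smallest for p42 anti-CEBPA and largest for p30 anti-ER. It was not seen in the weakest 20%. There lost regions had 10.4%, 6.69%, 10.6% and 10.6%, and regions of all 4 lists 7.40%, 4.93%, 7.67% and 8.22%. From 60 to 80% lost regions were higher for p42 anti-CEBPA (10.3% against 8.21%) and p42 anti-ER (9.65% against 8.19%). They were slightly lower there for p30 anti-CEBPA (5.21% against 5.51%) and p30 anti-ER (8.20% against 8.72%).

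The CEBPA sites found in the lost regions in 1 line only were mostly sites of p42. The rule itself treated the lines unequally, since it asked for H3K27ac in both p42 lists and its absence from a p30 list. The mirror selection did the reverse. How much of the lean to 1 line comes with this choice was not tested. With the same number of peaks taken from each line (31851 for anti-CEBPA, 23248 for anti-ER), anti-CEBPA peaks of both lines overlapped 136 regions, those of p42 alone 95 and those of p30 alone 25. Of the regions with a peak in 1 line only, p42 thus had 79.2% (71.1 to 85.5). With anti-ER the counts were 165 shared, 108 of p42 alone and 24 of p30 alone, or 81.8% for p42 (74.4 to 87.5). Regions lost only in p42 leaned the other way, where p42 had 30.3% of the 1-line sites by anti-CEBPA (22.4 to 39.5) and 16.8% by anti-ER (11.3 to 24.3). In regions of all 4 lists these shares were 33.3% and 46.0%. With the lists as deposited, where the longer list gains sites found in 1 line, the p42 share was 89.6% by anti-CEBPA and 51.7% by anti-ER in the regions lost only in p30. It was 61.0% (52.9 to 68.5) and 5.15% in the regions lost only in p42, and 63.2% and 14.7% in those of all 4 lists. The side of 50% on which the anti-CEBPA share of regions lost only in p42 fell thus depended on list length, while regions lost only in p30 had the highest share of these 3 classes either way.

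**Figure D4:**
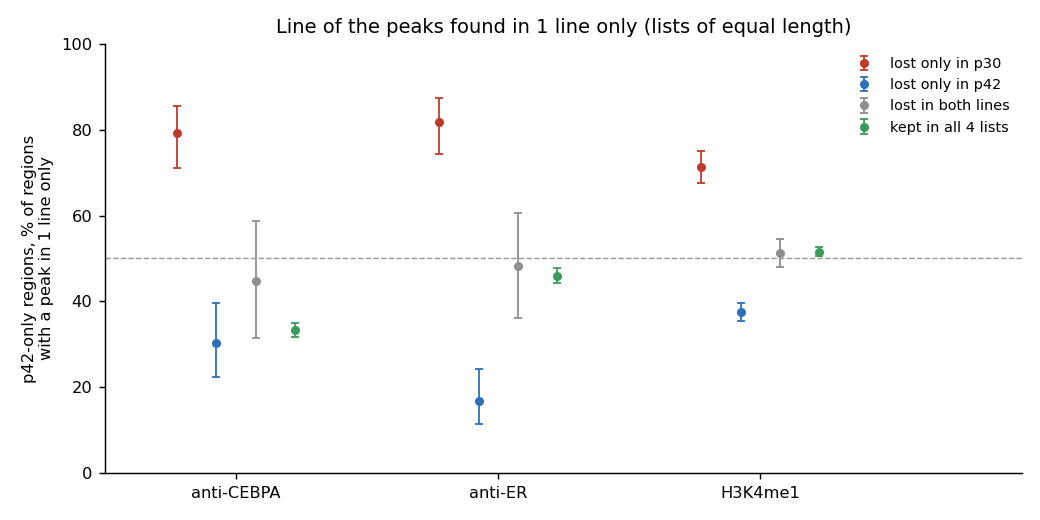
Share of p42-only regions among regions with a peak in 1 line only (y axis, Wilson 95% intervals; dashed line, 50%), with lists of equal length. Regions lost only in p30 lay at 79.2%, 81.8% and 71.4% for anti-CEBPA, anti-ER and H3K4me1, and regions lost only in p42 at 30.3%, 16.8% and 37.5%.

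Occupancy also varied with how the H3K27ac ranks of the lines compared before LPS. Both ranks come from lists that chose the regions and that differ in length (129369 peaks in untreated p42, 139210 in untreated p30), so they only describe the set. The rank share was better by over 20 points in p42 for 965 of the regions (30.1%) and in p30 for 611 (19.1%), against 8.01% and 10.7% of regions of all 4 lists, whose ranks are stronger. Of the 965 regions, 190 had a p42 anti-CEBPA peak (19.7%, 17.3 to 22.3) and 20.4% a p42 anti-ER peak. Where the lines ranked within 20 points of each other (1631 regions), the shares were 5.33% (4.34 to 6.53) and 4.41%. Where p30 ranked better by over 20 points, they were 2.29% and 0.655%. Regions of all 4 lists in which p42 ranked better by over 20 points had a similar p42 anti-CEBPA share, 19.4%, but regions lost only in p42 in the same rank class had 3.13%. Sites found in 1 line leaned to p42 both where p42 ranked better and where the lines ranked alike. By anti-CEBPA the p42 share was 77.6% (67.7 to 85.2) where p42 ranked better by over 20 points and 86.2% (69.4 to 94.5, from 25 p42-only and 4 p30-only regions) within 20 points. By anti-ER it was 88.8% (from 71 and 9 regions) and 76.6% (62.8 to 86.4). In regions of all 4 lists it was 66.1% and 80.2% by the 2 antibodies where p42 ranked better, and 30.3% and 43.0% within 20 points. Where p30 ranked better by over 20 points, few lost regions had a site in 1 line only. By anti-CEBPA 4 were p42-only and 2 p30-only, and by anti-ER 1 and 4, a p42 share of 20.0% (3.62 to 62.4). The part of the rank difference between the lines in the loss was not tested.

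Among the lost regions, occupancy was highest in those that lay far from any p30 LPS peak. The median distance to the nearest p30 LPS peak was 834 bp (quartiles 350 and 2220), and 1163 regions (36.3%) had one within 500 bp. The 352 regions over 5000 bp away had p42 anti-CEBPA peaks in 23.9% (19.7 to 28.6), p30 anti-CEBPA peaks in 14.5% (11.2 to 18.5), p42 anti-ER peaks in 27.6% (23.2 to 32.4) and p30 anti-ER peaks in 26.4% (22.1 to 31.3). For the 1163 regions within 500 bp the same shares were 6.53%, 4.64%, 5.25% and 5.85%. Isolated regions lost only in p42, over 5000 bp from a p42 LPS peak, had 2.70%, 2.52%, 1.70% and 5.35%. Regions of all 4 lists over 5000 bp from another p30 LPS peak had 19.0%, 17.1%, 20.0% and 28.0%, which were also their highest shares by distance. Isolated lost regions thus lay above them for p42 anti-ER, where the intervals did not overlap, and had overlapping intervals for p42 anti-CEBPA and both p30 lists. The isolated regions lost in p30 were not longer than those within 500 bp (median 590 against 569 bp), but they ranked better in untreated p42 (median 44.3% against 62.0%) and somewhat lower in untreated p30 (68.9% against 62.6%). In 172 of the 352 the p42 rank was better by over 20 points, and of these 42.4% (35.3 to 49.9) had a p42 anti-CEBPA peak and 46.5% (39.2 to 54.0) a p42 anti-ER peak. Of the other isolated regions, the 145 in which the lines ranked within 20 points had 6.90% and 11.0%.

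**Figure D5:**
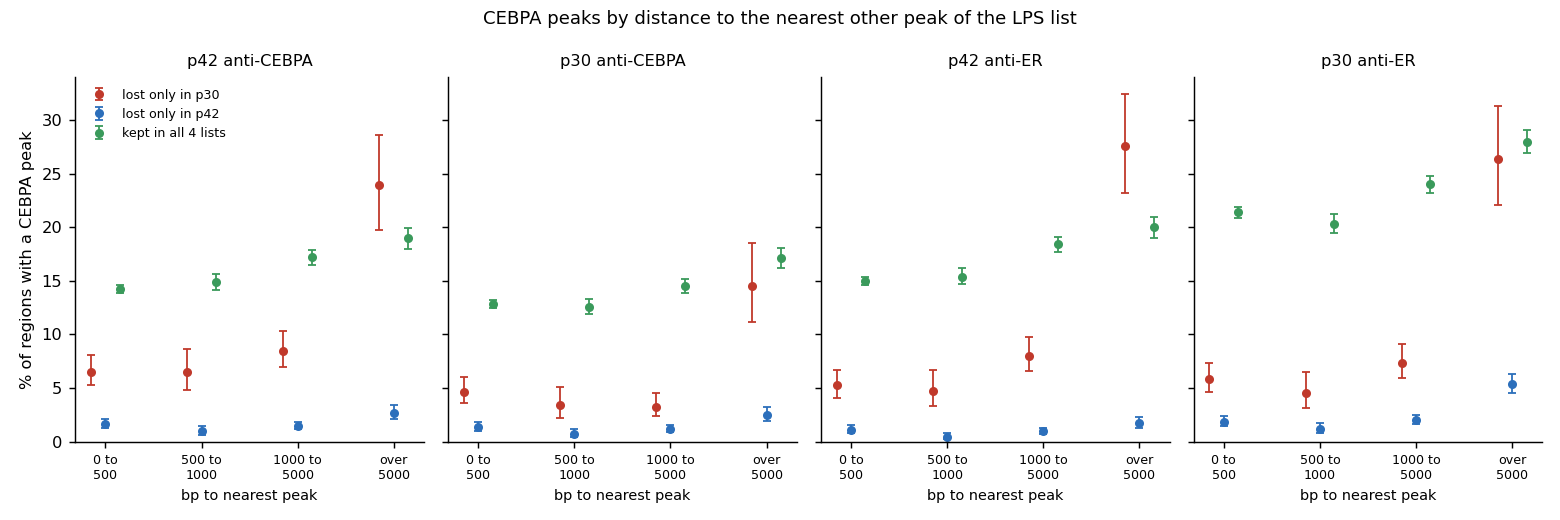
Percent of regions with a CEBPA peak, in 4 panels for the 4 CEBPA lists, by distance in bp to the nearest peak of the LPS list that lacks the region (for regions kept in all 4 lists, the nearest other p30 LPS peak); points with Wilson 95% intervals. Regions lost only in p30 over 5000 bp away reached 23.9%, 14.5%, 27.6% and 26.4%, above each closer class.

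H3K4me1 was found on fewer of the lost regions than on union regions as a whole. A p42 H3K4me1 peak overlapped 32.3% of them (30.7 to 33.9), against 36.4% of all union regions, and a p30 H3K4me1 peak 29.2% (27.7 to 30.8), against 42.8%. In regions lost only in p42 the order of the lines was reversed, with 34.3% in p42 and 43.5% in p30. With lists of equal length, 396 of the regions lost only in p30 had the mark in p42 only and 159 in p30 only, a share of 71.4% for p42 (67.5 to 75.0), while in regions of all 4 lists it was 51.6%. At matched rank the mark went with retention. Of eligible regions between 40 and 60% in the untreated p30 list, 6.42% with p30 H3K4me1 were lost (5.73 to 7.19) and 15.1% without it (14.1 to 16.2), and between 60 and 80% the shares were 13.5% and 24.7%.

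Most of the regions were intronic, 2106 of 3207 (65.7%), against 62.1% of all union regions. Another 588 lay in exons (18.3%, against 14.7%), 234 in intergenic sequence (7.30%, against 10.1%) and 279 at promoters (8.70%, 7.77 to 9.73, against 13.0%). Promoters held 22.1% of regions of all 4 lists and 8.77% of regions lost only in p42. The median distance from the strongest summit to the nearest protein-coding start was 13672 bp. Of the isolated regions 15.1% were intergenic, and of those within 500 bp of a p30 LPS peak 5.76%, while the same rise was from 5.08% to 14.2% in regions lost only in p42 and from 8.01% to 17.7% in regions of all 4 lists.

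Sequences recognized by transcription factors were counted on both strands in a 1000 bp window centred on the strongest summit of each of the 2928 distal regions. The CEBP sequence was present in 148 (5.05%, 4.32 to 5.91), against 2.84% of distal regions lost only in p42, 4.36% of those in all 4 lists and 3.57% of all distal union regions. It was in 9.06% (6.42 to 12.6) of the isolated regions. The AP-1 sequence TGACTCA was in 19.9% (18.5 to 21.4), against 18.9% of all distal union regions. It was in 17.5% of distal regions lost only in p42, 16.3% of those lost in both lines and 21.6% of those in all 4 lists. Its reversed letters ACTCAGT, which keep the base composition, were in 18.5% of the distal regions lost only in p30 and 17.5% of all distal union regions. In the classes lost only in p42, lost in both lines and in all 4 lists they were in 17.9%, 17.9% and 17.5%. The sequence GAGGAAGT, bound by PU.1, a regulator of myeloid and lymphoid genes, was in 7.79% (6.87 to 8.81), against 9.41% of all distal union regions and 14.0% of those in all 4 lists. In each of 4 classes of GC content the CEBP share was higher than in regions lost only in p42, for example 5.48% against 3.23% from 42 to 46% GC, with intervals that did not overlap there. The remaining words searched were RUNX (TGTGGTTT, 8.88% against 8.93% of all distal union regions), GATA (AGATAAGA, 4.41% against 4.50%), NF-kB (GGGANTTCC, 2.97% against 3.43%), CEBP:ATF4 (TGATGCAA, 2.94% against 2.61%), ETS (CCGGAAGT, 0.854% against 1.04%) and CRE (TGACGTCA, 0.717% against 0.785%). These shares lay within the interval of the lost regions in all 6 cases. CEBPA sites in the lost regions held the CEBP sequence within 100 bp of the summit in 20.8% of 207 p42 anti-CEBPA summits (15.8 to 26.8) and 31.1% of 103 p30 anti-CEBPA summits (22.9 to 40.5), against 23.5% and 28.1% of all sites of these lists. For anti-ER the shares were 16.7% of 227 p42 summits (12.4 to 22.1), below the 24.6% of all sites, and 20.0% of 190 p30 summits (14.9 to 26.3), against 22.2%.

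Single regions show the range. The region in an intron near *Atad2b*, which encodes a chromatin-associated AAA ATPase, lies at chr12:4981048-4981892, 14251 bp downstream of the start. Its H3K27ac fold was 5.73 in untreated p42, 3.84 in p42 LPS and 2.49 in untreated p30. The anti-CEBPA fold was 115 in p42 and 89.8 in p30, and the anti-ER fold was 110 in p42 and 101 in p30. Occupancy there was thus high in both lines while H3K27ac was stronger in p42. The region near *Sypl1* (chr12:32992833-32995143) had H3K27ac folds of 11.2, 8.16 and 2.62 in the same order, and anti-CEBPA folds of 74.6 in p42 and 50.2 in p30. It lay 7245 bp from the nearest p30 LPS peak. The region upstream of *Tgfbr1*, the type I receptor for TGF-beta, was weaker, with folds of 3.98, 3.07 and 3.15, and lay 312 bp from a p30 LPS peak. The region nearest to *Slc8a1*, a sodium-calcium exchanger, had folds of 3.27, 2.45 and 2.81 and lay 627974 bp from the start, so that the nearest gene says little about its target. The other 4 of the 8 strongest shared sites were near *Or10al7*, *Pecr*, *Zfp608* and *Pgpep1l*. In 6 of these 8 the H3K27ac fold before LPS was higher in p42 than in p30, and 7 held the CEBP sequence.

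The regions with the best mean rank were mostly without CEBPA. A region 27609 bp upstream of *Anks1b* (chr10:89680616-89681327) had H3K27ac folds of 13.7 in untreated p42, 9.68 in p42 LPS and 6.30 in untreated p30, and no peak in any CEBPA or H3K4me1 list. It lay only 277 bp from a p30 LPS peak. An intronic region near *1700047F07Rik* (chr4:107575005-107577688) had folds of 14.5, 10.3 and 4.59, anti-ER folds of 5.53 in p42 and 3.72 in p30, and no p30 LPS peak within 55255 bp. Regions nearest to *Ulbp1*, a ligand of an activating receptor of natural killer cells, and *Stard3nl* had no CEBPA peak. In these 4 regions the fold was lower in untreated p30 than in untreated p42.

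Most of the lost regions stood alone, although 237 (7.39%, 6.53 to 8.35) neighboured another lost region. Lost regions made up 1.75% of all union regions, and whether they clustered was not tested. Of all 3207, 2970 had no neighbouring union region that was also lost, 222 came in pairs and 15 in 5 runs of 3, near *Zcchc4*, *Daglb*, *Cabin1*, *Baz1a* and *Dtx4*. These 5 runs spanned 2163 to 3885 bp within or beside the genes, and none of their regions had a CEBPA peak. The run closest to a p30 LPS peak lay 859 bp from one, near *Zcchc4*.

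Nearest protein-coding genes numbered 2302, or 10.7% of 21562 genes. Of these, 1705 were nearest to 1 lost region and 33 to 5 or more. *Baz2b*, a bromodomain protein, and *Clasp1*, a microtubule regulator, each had 9, out of 39 and 53 eligible regions. *Hdac4*, a histone deacetylase, had 8 of 39, and *Runx1*, a transcription factor required for haematopoietic stem cells, had 8 of 86. *Bpnt1*, *Zfp608*, *Med13l* and *Zfp386* had 7 each. At *Baz2b* 23.1% of eligible regions were lost (12.6 to 38.3) and at *Runx1* 9.30% (4.79 to 17.3), against 5.36% of all eligible regions. These 8 genes were picked for having the most lost regions. Their shares and intervals therefore describe the choice and do not show enrichment at any of them. Of the 62 regions at these 8 genes, 4 had a CEBPA peak (6.45%, 2.54 to 15.4), an interval that includes the 12.6% of all lost regions.

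Genes of LPS signalling and of the progenitor and myeloid programmes held few of the lost regions. Over 14 lists with 253 genes, 52 of 1786 eligible regions were lost, 2.91% (2.23 to 3.80), below the 5.36% of all eligible regions, with a median of 0 per gene. Eligible regions at these genes ranked slightly better in the untreated p30 list, with a median of 21.9% against 24.1%. At matched rank the listed genes were also not above the others, with 8.02% against 11.0% lost from 40 to 60% and 14.1% against 28.4% in the weakest 20%. A region was lost at 35 of the 253 genes (13.8%), beside 10.7% of all protein-coding genes, and the listed genes have more eligible regions each, with a median of 4.00 against 3.00 for genes with any.

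Of 122 eligible regions at 18 genes of the AP-1 family, leucine zipper factors induced by many stimuli, 1 was lost. It lay 9126 bp upstream of *Fos* (chr12:85511061-85511909), with H3K27ac folds of 7.11 in untreated p42, 4.24 in p42 LPS and 3.41 in untreated p30, H3K4me1 in both lines and no CEBPA peak. It was the only 1 of 12 eligible regions within 50 kb of *Fos*. Of 134 regions at genes of NF-kB subunits and inhibitors 3 were lost, 2 of them near *Nfkb1*, and of 104 at Toll-like receptor signalling genes 5 were lost, 2 near *Map3k7*, the kinase TAK1. None of the 42 eligible regions at chemokine genes was lost, which allows a share of up to 8.38%, and 1 of 83 at cytokine genes, 20970 bp upstream of *Il12a*, a subunit of interleukin 12. That region had CEBPA peaks in all 4 lists, with anti-CEBPA folds of 15.2 in p42 and 7.92 in p30 and H3K27ac folds of 6.57, 4.15 and 2.40. Within 50 kb of *Cxcl10*, *Cebpb* and *Gadd45a* none of 4, 12 and 14 eligible regions was lost.

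C/EBP and Tribbles genes lost 4 of 81 eligible regions. The Tribbles proteins TRIB1 and TRIB2 direct the degradation of p42. The region 4390 bp downstream of the *Trib1* start (chr15:59523902-59524711) had H3K27ac folds of 7.69 in untreated p42, 4.30 in p42 LPS and 2.23 in untreated p30, a p42 anti-CEBPA fold of 5.40 with no p30 anti-CEBPA peak, and anti-ER folds of 13.4 in p42 and 6.65 in p30. The other *Trib1* region, a *Trib2* region and a region 14890 bp from *Cebpa* had no CEBPA peak. At genes of immediate early factors and phosphatases 5 of 210 were lost, 2 of them near *Zfp36l2*, which encodes an RNA-binding protein that promotes mRNA decay. *Dusp6*, a phosphatase of ERK, and *Nr4a1*, a nuclear receptor of the immediate early response, were picked out after their values were seen. The *Dusp6* region, 7011 bp downstream of the start, had H3K27ac folds of 8.81, 6.15 and 2.89 and anti-ER folds of 27.6 in p42 and 26.1 in p30. The *Nr4a1* region, at the promoter, had folds of 4.89, 5.22 and 3.15 and no CEBPA peak.

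Stress and growth arrest genes lost 4 of 82. The region 145077 bp upstream of *Hif1a*, the oxygen-regulated transcription factor (chr12:73801676-73804607), was among the strongest in untreated p42, with a fold of 15.4, and had 10.4 in p42 LPS and 2.36 in untreated p30. It had CEBPA peaks in p42 only, with an anti-CEBPA fold of 14.9 and an anti-ER fold of 11.0, and lay 20572 bp from a p30 LPS peak. Interferon genes lost 3 of 114, 2 near *Irf2*, a repressor of interferon-stimulated genes. Stem and progenitor factors lost 11 of 232, 8 of them at *Runx1*, with no CEBPA peak in any of the 8 and H3K27ac folds between 1.87 and 3.77 over the 3 lists. Myeloid factors lost 7 of 227, with 2 each at *Myc* and at *Zeb2*. Growth factor receptors lost 4 of 168, with 3 at *Ifngr1*, the ligand-binding chain of the interferon-gamma receptor. Neutrophil granule genes lost 1 of 47, 1715 bp upstream of *Ltf*, lactoferrin, where CEBPA peaks were found in p42 only, with folds of 5.56 and 6.37. Replication and cell cycle genes lost 4 of 148, 1 each at *Ccnd3*, *Cdk6*, *Mcm3* and *Mcm6*, none with a CEBPA peak. Of the 52 regions at listed genes, 12 had a CEBPA peak (23.1%, 13.7 to 36.1), against 12.6% of all lost regions. At promoters lay 3 (5.77%, 1.98 to 15.6, against 8.70%), and 4 lay over 5000 bp from a p30 LPS peak (7.69%, 3.03 to 18.2, against 11.0%).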

How the data were processed

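Pooled peak lists of H3K27ac (4 groups) and H3K4me1 (2), and lists of 1 library each for anti-CEBPA and anti-ER (2 each), were used. In the study, Trim Galore 0.6.6 trimmed the reads, Bowtie2 aligned them to mm39, Picard marked duplicates for removal, and MACS2 called narrow peaks over input. The names of the anti-CEBPA lists, unlike all others used, do not state that the fragment model was switched off, and whether calling differed is not given in the sources used here. The authors deposited a fold enrichment (a ratio), the −log10 of a p-value and of a q-value, a score and the summit offset for each peak. Lists reach down to a q of about 0.05. The human ATF4 list was not used here.

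Peaks on chromosomes 1 to 19, X and Y were ranked by p-value within their list, and the fold given for a region is that of its best-ranked peak. A CEBPA or H3K4me1 peak was counted when it overlapped the region by at least 1 bp. A summit counted as promoter from 1000 bp before to 100 bp after a transcript start, else as exonic, intronic or intergenic, by GENCODE M39 on GRCm39, the same assembly as mm39. The members, gene lists and sequences were chosen with earlier results of these data known. Named were the 5 regions of best mean rank (1 is not reported here), the 8 strongest shared CEBPA sites, the longest runs (5 tied), the 8 genes with most regions, the top genes of each list and the loci *Fos*, *Cxcl10*, *Cebpb* and *Gadd45a*.

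With 1 pooled list per group there is no test between replicates and no p-value is given. Shares carry Wilson 95% intervals. Depth is unknown from peak lists. Alternatives were stricter q, lists of equal length, a 500 bp margin, 50% coverage, other definitions of a site, promoter, window and nearest gene, and, added after seeing the data, a summit within 500 bp. Python 3 scripts were tested on simulated lists.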

Additional observations from a re-analysis of the deposited data

How the results depend on the processing

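No paired analysis was possible because replicates were pooled before peaks were called, and for the same reason no replicate could be left out. The number of regions was 3207 as reported, 312 with q under 1e-05 in the 3 lists, 2044 with no p30 LPS peak within 500 bp and 1193 with 50% coverage. In that order of settings the shares became 21.2%, 10.5% and 6.29% for p42 anti-CEBPA and 22.8%, 10.4% and 5.36% for p42 anti-ER. For p30 anti-ER they became 23.1%, 9.78% and 6.96%, and for p30 anti-CEBPA 10.9% with the stricter q and 3.60% with 50% coverage. H3K4me1 moved to 48.1%, 35.5% and 30.4% in p42 and 41.3%, 33.6% and 26.0% in p30 with the stricter q, equal H3K27ac lists and the 500 bp margin. Requiring the CEBPA summit inside the region gave 6.27%, 3.12%, 6.74% and 5.86% for p42 anti-CEBPA, p30 anti-CEBPA, p42 anti-ER and p30 anti-ER. Equal numbers of sites gave 7.20% for p42 anti-CEBPA and 5.89% for p30 anti-ER, and the summit within 500 bp, added after seeing the data, gave 9.92% for p42 anti-ER. Promoters within 2500 bp held 31.9%. The CEBP sequence was in 6.97% with the stricter q, 3.69% with 50% coverage and 2.02% in 400 bp windows, and AP-1 in 8.61% in 400 bp windows. Listed genes near a region numbered 35 as reported, 6, 23 and 13 under the first 3 settings and 13 with the nearest gene of any kind within 100 kb. The other 24 of 60 values stayed within the interval of the reported share or within 1.5 times the count. Regions near the calling threshold make up most of the set, absence from a list is not absence of the mark, and 1 library per CEBPA list leaves its spread unknown.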

Other observations

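The X chromosome held 15 of the regions, out of 878 eligible (1.71%, 1.04 to 2.80), while chromosome 1 held 391 of 5141 (7.61%, 6.91 to 8.36). On the other chromosomes with over 100 eligible regions the shares ran from 4.06% on chromosome 11 to 6.36% on chromosome 18. Eligible regions on X ranked better in the untreated p30 list, with a median of 15.4% against 26.6% on chromosome 1. At matched rank, X still had fewer lost regions from 40 to 60% (2 of 75, or 2.67%, 0.734 to 9.21, against 11.0% elsewhere, 10.3 to 11.6). From 20 to 40% it had 0 of 198, which allows up to 1.90% and overlaps the interval elsewhere (1.99%, 1.79 to 2.22). In the weaker classes the intervals also overlapped, with 14.0% against 20.1% and 20.0% against 28.1%. Regions lost only in p42 were also fewer on X (10.5% of 964) than on chromosome 1 (15.2% of 5603). The X share was picked out after the values of all chromosomes were seen, and its cause was not tested.

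With a q-value under 1e-05 in each of the 3 lists, 312 regions met the rule, and their CEBPA shares were 21.2% for p42 anti-CEBPA, 10.9% for p30 anti-CEBPA, 22.8% for p42 anti-ER and 23.1% for p30 anti-ER. The 1997 regions lost only in p42 under the same limit had 1.75%, 2.15%, 1.55% and 4.56%.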
